A study of Mus musculus with 12 samples.

Results

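Runx1, Runx2, Runx3 and Cbfb encode the subunits of core binding factor, and these 4 genes were taken by symbol from the 22364 gene symbols that the 3 expression tables share. All 4 were listed in each table and measured in all 12 RNA-sequencing libraries. The libraries come from cultured C57BL/6 mouse bone marrow cells in 6 groups of 2. In the MLL-AF9 cotransduction, Lin- (lineage-negative) marrow cells received the MLL-AF9 fusion together with PRDM16 or with PRDM16mut, a mutant form whose change the labels do not name. In the E2A-HLF cotransduction, Lin- marrow cells received the E2A-HLF fusion with PRDM16 or PRDM16mut. In the MLL-AF9 stable cells, PRDM16 or PRDM16mut was added to marrow cells that carried MLL-AF9 from an earlier transduction. Every group thus carries a leukaemia fusion and 1 form of PRDM16, and all were grown with 15% serum and 10 ng/ml each of the cytokines IL3, IL6 and SCF. Selection lasted 10 days, by puromycin alone for the stable cells and by puromycin plus G418 for the cotransduced cells. The design asks how PRDM16 differs from PRDM16mut within each experiment. Every library has 1 of the 2 forms, so a difference may come from PRDM16, from PRDM16mut or from both. The vectors, the number of mice and the number of clones are not stated.

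Core binding factor is a heterodimer. A RUNX protein binds DNA through its Runt domain, and CBFβ, the product of Cbfb, does not contact DNA but strengthens the binding and protects RUNX proteins from degradation. Runx1 is required for blood stem cells to form and is a frequent target of mutation and translocation in leukaemia. Runx2 is the master regulator of bone-forming cells and is also expressed in early blood progenitors, and Runx3 acts in T cells, NK cells and some myeloid cells. RUNX proteins recognise a short core sequence, read as ACCACA on 1 strand and TGTGGT on the other, and RUNX genes carry such cores near their own start sites.

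The promoter sequences below show that shared element, because the 3 RUNX genes have it in common while their levels differ between groups. RefSeq windows of 300 bases (250 before and 50 after a transcription start, build GRCm38.p6) were matched for all 4 genes, with 6 windows in all. The tables were made on another build, mm9. Runx1 and Runx3 each have an upstream and a downstream start, and Runx2 and Cbfb have 1 window each. A pair of ACCACA cores 2 bases apart stands in the upstream window of Runx1 (chr16:92826025-92826054, minus strand), in the window of Runx2 (chr17:44814582-44814611, minus strand) and in the upstream window of Runx3 (chr4:135120504-135120533, plus strand). Each line gives 30 bases, 5′ to 3′, with the pair of ACCACA cores in capitals.
Runx1: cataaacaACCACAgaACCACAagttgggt
Runx2: acaaacaACCACAgaACCACAagtgcggtg
Runx3: tccctcaACCACAgaACCACAaggccaggc
The pair begins 29 bases after the start in Runx1, 24 bases after it in Runx2, and at base -134, before the start, in Runx3. The run ACCACAGAACCACAAG was taken as the longest stretch that windows of the 3 RUNX genes share, read from the first core. Its presence in those 3 windows was thus fixed by the choice. Searched on both strands, the run occurs in 4 of 32851 windows of this length (0.0122%). Those are the 3 RUNX windows and that of Gm16225, a gene on the opposite strand whose window overlaps the upstream window of Runx3. A single ACCACA on either strand is common, in 16.8% of the windows, and at least 2 are in 1.81%. The Runx2 window holds 1 more ACCACA at base -80 and 1 match to ACCGCA, the other common form of the core (6.45% of windows), on the opposite strand at base 40, which is in lower case in the line above. No ACCACA or ACCGCA is in the downstream windows of Runx1 and Runx3 or in the window of Cbfb. A match describes the letters and not a bound site. The 250 bases before the upstream start of Runx3 (chr4:135120395-135120644, plus strand), the only one of the 3 with the pair ahead of the start, read as follows with the cores in capitals.
Runx3: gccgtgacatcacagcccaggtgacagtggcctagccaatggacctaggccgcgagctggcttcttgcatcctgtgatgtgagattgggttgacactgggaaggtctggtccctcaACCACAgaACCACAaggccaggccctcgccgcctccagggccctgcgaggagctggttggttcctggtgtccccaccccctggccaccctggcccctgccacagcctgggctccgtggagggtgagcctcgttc

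Levels are FPKM (fragments scaled to transcript length and to the mapped fragments of the library), 1 value per gene symbol, so transcripts from the upstream and downstream starts are not separated. Differences are log2 fold changes of FPKM plus 1, PRDM16 minus PRDM16mut, tested with limma over all genes of a table that reached 1 FPKM in at least 2 of its 4 libraries. Calls were made where the p adjusted by Benjamini-Hochberg was under 0.05. With 2 libraries a group the p-values rest on a spread shared across genes. No label says that replicates were separate cultures, so that spread may be technical. For 2 libraries against 2, the smallest p of an exact permutation test is 0.333. Total depth is unknown because the tables hold no counts. Relative depth was read from the steps between low values, where 44.3% to 53.3% of the ratios of replicates under 0.5 FPKM were within 0.5% of a ratio of whole numbers up to 6. Replicate 2 was 1.63 times as deep as replicate 1 for PRDM16 with MLL-AF9 cotransduction, and 0.918 to 1.17 times as deep in the other 5 groups. The table of the MLL-AF9 cotransduction lists Rn45s, a precursor of ribosomal RNA, at 0 for its 2 PRDM16 libraries, while the other 10 libraries have 941 FPKM or more. Whether those libraries were processed differently cannot be told apart from the difference between the groups. Prdm16 itself was called higher with PRDM16 in the MLL-AF9 cotransduction (log2 fold change 1.71, limma adjusted p = 0.000418) and lower in the stable cells (-0.22, adjusted p = 0.0414). In the E2A-HLF cotransduction its difference was 0.09 (adjusted p = 0.622).

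In the MLL-AF9 cotransduction, Runx2 was 6.78-fold lower with PRDM16 than with PRDM16mut, Runx1 was 1.44-fold lower and Runx3 was 1.77-fold higher, while Cbfb did not pass the test (ratios of mean FPKM). The RUNX genes thus moved in both directions within 1 comparison. Of the 4 genes 3 were called, where 69.5% of all 11071 genes tested were called. The groups did not overlap for the same 3, and for 86.3% of all genes.

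Runx2 measured 1.03 and 1.16 FPKM in the PRDM16 libraries and 7.89 and 6.97 FPKM in the PRDM16mut libraries. Both PRDM16 libraries sat at the lower edge of what the filter admits. The log2 fold change was -2.01 with a standard error of 0.0811 (limma adjusted p = 2.49e-05), larger in size than that of 95.8% of the genes tested. At such low levels its size depends on the 1 FPKM added before the log, and with 0.1 FPKM added instead it was -2.65. Runx1, the main RUNX gene of blood stem and progenitor cells, measured 10.9 and 10.7 FPKM with PRDM16 and 15.4 and 15.6 FPKM with PRDM16mut. The group means of 10.8 and 15.5 FPKM stood far apart against standard deviations of 0.146 and 0.161 FPKM (n = 2 each). Its log2 fold change of -0.49 (SE 0.0543, adjusted p = 0.000793) was larger than that of 60.3% of genes, so the shift was tight but of ordinary size in this comparison.

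Runx3 measured 15.9 and 18.6 FPKM with PRDM16 and 9.85 and 9.63 FPKM with PRDM16mut. Its PRDM16 libraries were the most scattered of any RUNX group, with a standard deviation of 1.92 FPKM, and both stayed above the PRDM16mut libraries. The log2 fold change was 0.76 (SE 0.0858, limma adjusted p = 0.000802). Cbfb, the shared partner, measured 70.3 and 64.9 FPKM with PRDM16 and 67.2 and 64.9 FPKM with PRDM16mut. Its groups overlapped, and the difference of 0.03 had a 95% interval from -0.12 to 0.19 (adjusted p = 0.663), which spans 0.918 to 1.14 times the PRDM16mut level on the FPKM plus 1 scale.

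**Figure D1:**
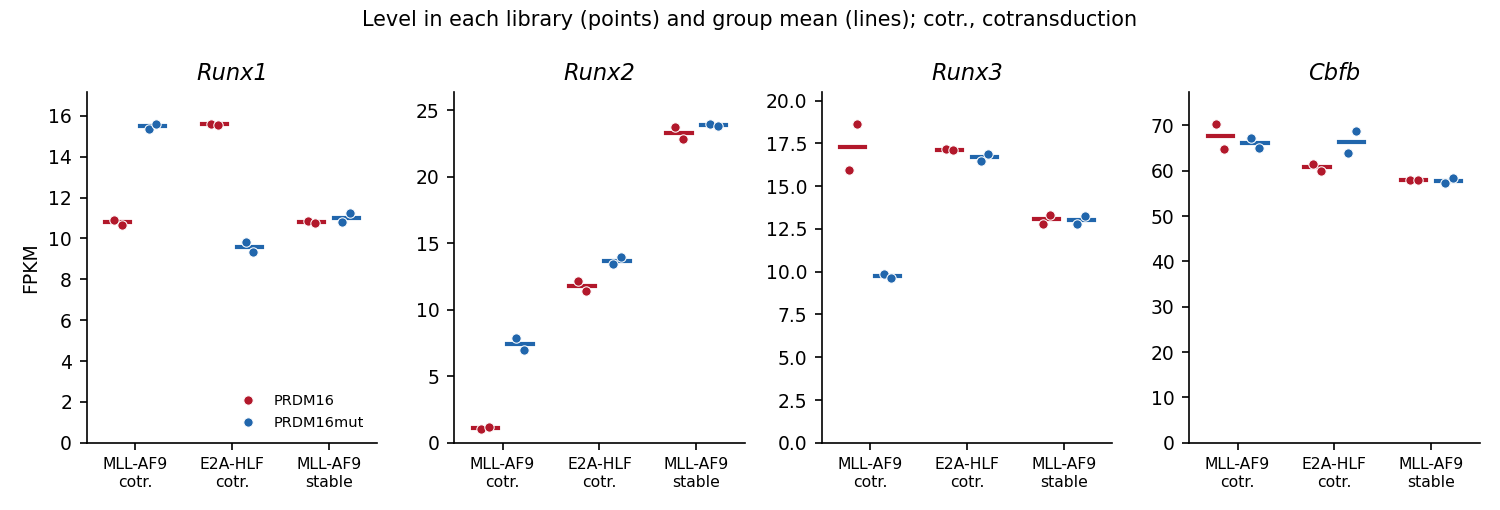
FPKM of Runx1, Runx2, Runx3 and Cbfb (1 panel each, separate axes from 0) in the 12 libraries, with points for libraries, lines for group means, red for PRDM16 and blue for PRDM16mut. Runx2 spans from 1.03 to 23.99 FPKM, while Cbfb stays between 57.2 and 70.3 FPKM, and Runx1 lies on opposite sides in the 2 cotransductions.

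In bulk RNA a lower level can mean fewer cells of a type or less RNA per cell, and these cannot be told apart here. Markers of blood cell types moved between the same groups. The 12 neutrophil precursor markers, all at 1 FPKM or more on average, summed to 1380 and 1447 FPKM with PRDM16 and to 54130 and 55220 FPKM with PRDM16mut. The 10 monocyte and macrophage markers, 9 of them at 1 FPKM or more, summed to 5191 and 5252 against 2181 and 2195 FPKM. Mast cell and basophil markers (11 of 12 at 1 FPKM or more) summed to 218 and 219 against 2252 and 2234 FPKM. Dendritic cell markers (6 of 12) summed to 1406 and 1534 against 162 and 159 FPKM, with Flt3, Siglech and Clec9a among those under 1 FPKM. Their part in the RUNX differences was not tested. Bone and stromal cells, where Runx2 is known to be high, gave almost no signal. None of their 12 markers reached a mean of 1 FPKM in any experiment, and their sum ran from 0.168 to 2.91 FPKM over the 12 libraries. Of the B cell markers 1 of 10 reached 1 FPKM in each experiment, and of the T and NK cell markers 2 of 12 in the cotransductions and 1 of 12 in the stable cells. Cd3e, Cd8a, Cd4 and Pax5 were below 1 FPKM throughout.

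With E2A-HLF as the fusion, Runx1 was 1.63-fold higher with PRDM16, Runx2 was 1.16-fold lower, and Runx3 and Cbfb did not pass the test. Of the 4 genes 2 were called, where 43.8% of 11010 genes were called. The groups did not overlap for any of the 4, and for 73.7% of all genes.

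Runx1 measured 15.6 FPKM in both PRDM16 libraries and 9.84 and 9.34 FPKM in the PRDM16mut libraries. Its levels with PRDM16 and PRDM16mut were thus nearly the reverse of those in the MLL-AF9 cotransduction. The log2 fold change was 0.65 with a standard error of 0.0496 (limma adjusted p = 0.000209), larger in size than that of 88.6% of genes. Runx2 measured 12.1 and 11.4 FPKM with PRDM16 and 13.4 and 13.9 FPKM with PRDM16mut. The groups were close but separate, with a log2 fold change of -0.20 (SE 0.0534, adjusted p = 0.0257). It was no longer called when PRDM16 replicate 2 was left out (adjusted p = 0.120), when either PRDM16mut library was (0.0559 and 0.115), or with no filter on low values (0.110).

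Runx3 measured 17.2 and 17.1 FPKM with PRDM16 and 16.5 and 16.9 FPKM with PRDM16mut. The difference of 0.04 had a 95% interval from -0.07 to 0.15 (limma adjusted p = 0.530), which spans 0.952 to 1.11 times the PRDM16mut level on the FPKM plus 1 scale. Cbfb measured 61.6 and 59.9 FPKM with PRDM16 and 64.0 and 68.7 FPKM with PRDM16mut. Its difference of -0.12 did not pass (adjusted p = 0.0946) but passed at -0.20 after quantile normalization (adjusted p = 0.00898) and at -0.17 without replicate 1 of the PRDM16mut group (adjusted p = 0.0472). Neutrophil precursor markers, 10 of 12 at 1 FPKM or more with Camp and Ltf below it, summed to 2119 and 2019 FPKM with PRDM16 and to 677 and 692 FPKM with PRDM16mut. Monocyte and macrophage markers (8 of 10) summed to 459 and 431 against 114 and 119 FPKM, with Csf1r and Ly86 under 1 FPKM. Mast cell and basophil markers (7 of 12) summed to 222 and 219 against 177 and 182 FPKM, and dendritic cell markers (6 of 12) to 112 and 109 against 308 and 317 FPKM. In both cotransductions the group with higher Runx1 thus had the higher neutrophil precursor and mast cell sums and the lower dendritic cell and erythroid sums. The erythroid sums, that group first, were 276.1 and 212.8 against 1201 and 748.3 FPKM with MLL-AF9. With E2A-HLF they were 462.1 and 288.5 against 714.4 and 497.7 FPKM. Single markers could run against their sum. Gata2, a mast cell marker, was lower in that group with MLL-AF9 (31.3 against 99.86 FPKM) and higher with E2A-HLF (61.72 against 53.1). Gata1, an erythroid marker, was lower with MLL-AF9 (10.54 against 19) and higher with E2A-HLF (6.907 against 5). Other lists did not follow. The monocyte and macrophage sum and the T and NK cell sum were lower in that group with MLL-AF9 and higher with E2A-HLF. Most of the T and NK cell sum was Gzmb, at means of 484.8 (PRDM16) and 170.9 FPKM (PRDM16mut) with MLL-AF9. With E2A-HLF Gzmb was at 48.61 and 38.86 FPKM. In the group with higher Runx1 the megakaryocyte sum was higher with MLL-AF9 and overlapped the other group with E2A-HLF. The part of these cell types in the Runx1 difference was not tested.

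**Figure D2:**
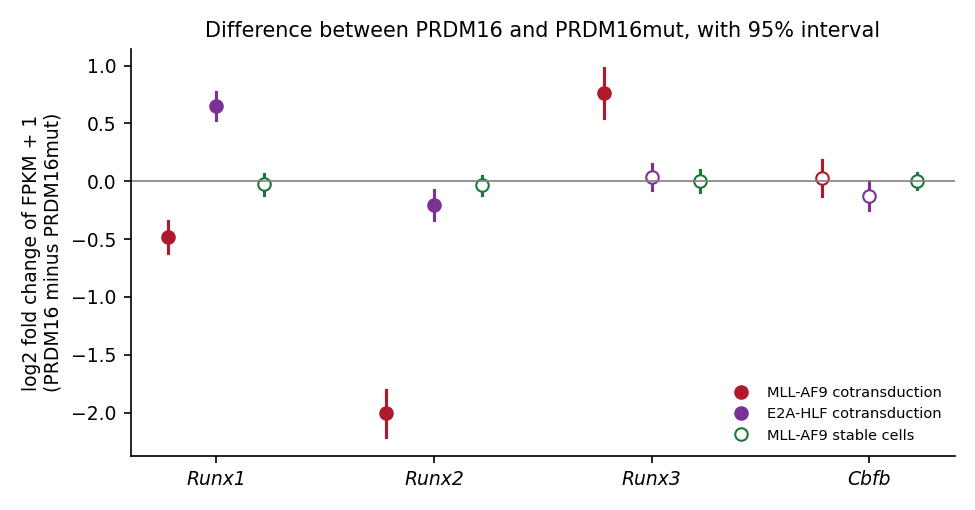
Log2 fold change of FPKM plus 1 (PRDM16 minus PRDM16mut) for each gene in the 3 experiments, with the 95% interval from limma and with filled points for calls at an adjusted p under 0.05. Runx1 is at -0.49 in the MLL-AF9 cotransduction and at 0.65 in the E2A-HLF cotransduction, and all 4 intervals of the stable cells hold 0.

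In the MLL-AF9 stable cells none of the 4 genes was called by limma, at an unadjusted p of 0.342 or more, where 6.36% of 10580 genes were called. Runx1 measured 10.8 and 10.7 FPKM with PRDM16 and 10.8 and 11.2 FPKM with PRDM16mut. Its difference was -0.03 with a 95% interval from -0.12 to 0.07. Runx2 measured 23.8 and 22.9 FPKM with PRDM16 and 24.0 and 23.8 FPKM with PRDM16mut, a difference of -0.03 with an interval from -0.12 to 0.05. It was the only one of the 4 whose groups did not overlap, as for 60.6% of all genes. Runx3 measured 12.8 and 13.3 FPKM with PRDM16 and again 12.8 and 13.3 FPKM with PRDM16mut, with an interval from -0.10 to 0.10. Cbfb measured 57.9 and 58.0 FPKM against 57.2 and 58.4 FPKM, with an interval from -0.07 to 0.07. On the FPKM plus 1 scale the 4 intervals together span 0.920 to 1.07 times the PRDM16mut level. Neutrophil precursor markers in these cells, all 12 at 1 FPKM or more, summed to 16300 and 16420 FPKM with PRDM16 and to 15610 and 16210 FPKM with PRDM16mut.

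The differences between experiments were tested as contrasts of contrasts in 1 limma fit of all 12 libraries over 9488 genes. Effect here means PRDM16 minus PRDM16mut, which may come from either form. The effect on Runx1 in the E2A-HLF cotransduction exceeded that in the MLL-AF9 cotransduction by 1.13 on the log2 scale (SE 0.0585, adjusted p = 4.31e-08), and the 2 effects had opposite signs. For this pair of experiments 71.4% of all genes differed. The effect on Runx2 differed by 1.80 (adjusted p = 2.19e-08) and that on Runx3 by -0.73 (adjusted p = 3.27e-05), the MLL-AF9 cotransduction having the larger change in both cases. Cbfb differed by -0.16 (adjusted p = 0.0648). Between the stable cells and the MLL-AF9 cotransduction, which share the fusion, Runx1, Runx2 and Runx3 again all differed (0.46, 1.97 and -0.76, adjusted p = 6.44e-05, 2.43e-08 and 3.30e-05), as did 64.0% of all genes, and Cbfb did not pass (-0.03, adjusted p = 0.734). Between the stable cells and the E2A-HLF cotransduction only Runx1 passed among the 4 (-0.67, adjusted p = 1.09e-05), where 37.1% of all genes did. With quantile normalization Cbfb also passed in this pair (0.19, adjusted p = 0.0284).

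The levels across the 6 groups show which RUNX gene dominates where, although each table was scaled on its own and levels across tables carry no test. The MLL-AF9 cotransduction table lists 23309 genes, partly under newer symbols, and the other tables have 23235 genes, so gene models, and with them FPKM, may differ between tables. FPKM is per length, so the genes can also be compared with each other within a library. Cbfb was the most abundant of the 4 in every library, at 57.2 to 70.3 FPKM, a 1.23-fold range. Runx1 ranged 1.67-fold, from 9.34 to 15.6 FPKM. Its order ran from the PRDM16 group of the E2A-HLF cotransduction and the PRDM16mut group of the MLL-AF9 cotransduction, which overlapped, down through 3 overlapping groups (both stable groups and MLL-AF9 with PRDM16) to E2A-HLF with PRDM16mut. Runx3 ranged 1.94-fold, from 9.63 to 18.6 FPKM. Its highest groups were the PRDM16 groups of the MLL-AF9 and E2A-HLF cotransductions, which overlapped, and its lowest was MLL-AF9 with PRDM16mut. Runx2 ranged 23.3-fold, and no neighbouring groups in its order overlapped. The stable cells were highest (23.9 FPKM with PRDM16mut and 23.3 with PRDM16), the E2A-HLF groups came next (13.7 and 11.8), and the MLL-AF9 cotransduction was lowest (7.43 and 1.097).

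Shares of the summed RUNX FPKM are free of any scaling of a library as a whole. In the MLL-AF9 cotransduction Runx2 made up 3.70% and 3.82% of RUNX FPKM with PRDM16 and 23.8% and 21.6% with PRDM16mut. Runx3 made up 57.2% and 61.1% with PRDM16 and 29.7% and 29.9% with PRDM16mut, so the leading RUNX gene was Runx3 in the first group and Runx1 (46.4% and 48.5%) in the second. The sum itself differed little, at 27.9 and 30.5 FPKM with PRDM16 against 33.1 and 32.2 FPKM with PRDM16mut.

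In the E2A-HLF cotransduction Runx3 led in all 4 libraries, and Runx1 had the lowest share with PRDM16mut (24.7% and 23.3%) but exceeded Runx2 with PRDM16 (34.7% and 35.3%). In the stable cells Runx2 led in all 4 libraries with 48.7% to 50.4% of the sum. Cbfb FPKM exceeded the RUNX sum in every library, by a ratio of 2.02 to 2.53 in the MLL-AF9 cotransduction, 1.36 to 1.71 in the E2A-HLF cotransduction and 1.20 to 1.23 in the stable cells. In the E2A-HLF cotransduction that ratio was lower with PRDM16 (1.37 and 1.36) than with PRDM16mut (1.61 and 1.71). RNA shares do not give the amounts of the proteins.

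**Figure D3:**
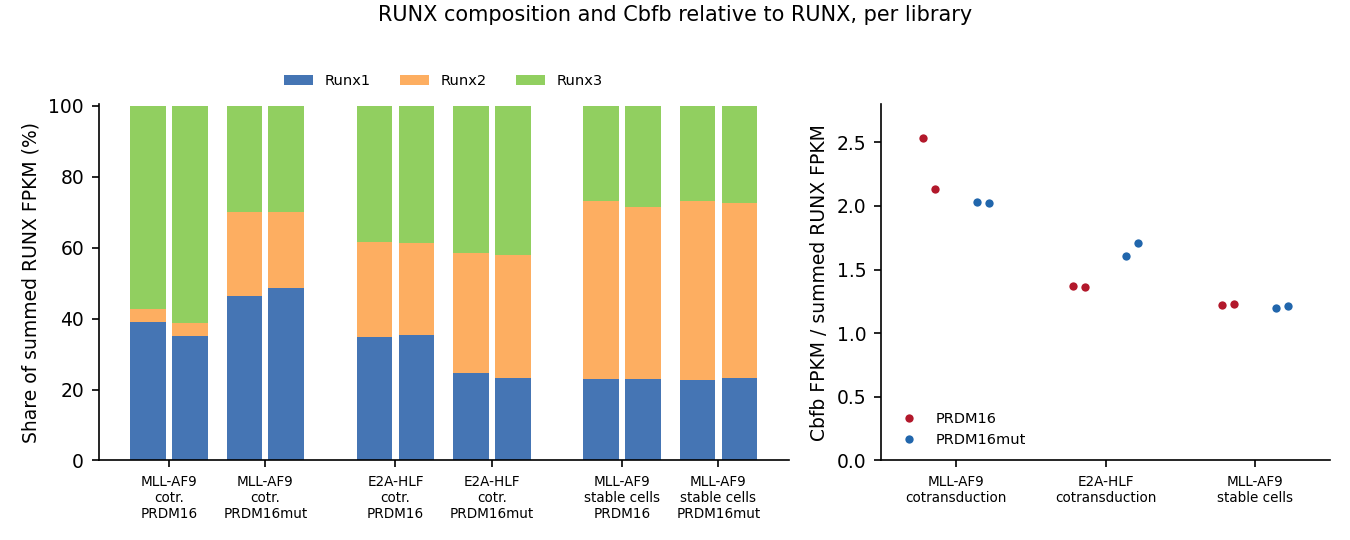
Left, share of summed RUNX FPKM (percent) held by Runx1, Runx2 and Runx3 in each of the 12 libraries, replicates side by side. Right, Cbfb FPKM divided by the RUNX sum in each library. Runx2 holds 3.70% and 3.82% in the PRDM16 libraries of the MLL-AF9 cotransduction and 48.7% to 50.4% in the stable cells.

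The genes most like each member were found by Pearson correlation of log2 FPKM plus 1, centred on the mean of each table, over the 12 libraries and 9488 genes. Clone names, predicted genes, small RNAs and date-converted symbols were left out of the ranking. The libraries form 6 groups, so these correlations mostly reflect a few group differences and are given as a description. Nearest to Runx1 were Dmxl2 (r = 0.996), Itgam, the integrin CD11b of myeloid cells (0.996), Abca13 (0.995), Atrn (0.995) and F10, coagulation factor X (0.995). Each of the 5 was lower with PRDM16 in the MLL-AF9 cotransduction and higher in the E2A-HLF cotransduction, by larger amounts than Runx1. Abca13 differed by -3.01 and 4.21, and Itgam by -1.42 and 1.84 on the log2 scale. Over the 8 libraries outside the MLL-AF9 cotransduction r was 0.993 to 0.996 for the 5.

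Nearest to Runx2 were Gfi1, a zinc finger repressor needed for neutrophil development (r = 0.997), Rasgrp2 (0.997), Carns1 (0.997), Mms22l (0.996) and Pglyrp1 (0.996). Gfi1 fell from 88.6 and 88.8 FPKM with PRDM16mut to 1.23 and 2.01 FPKM with PRDM16 in the MLL-AF9 cotransduction. Outside that experiment r with Runx2 was 0.962 for Gfi1 and 0.789 to 0.901 for the other 4. Nearest to Runx3 were Tesk1 (0.999), Rnf10 (0.998), Bak1, a promoter of cell death (0.997), Tecpr1 (0.993) and Xylt2 (0.993), with r from 0.382 to 0.934 outside the MLL-AF9 cotransduction. Nearest to Cbfb were Rnf138 (0.926), Oraov1 (0.922), Erh (0.914), Ncoa7 (0.912) and Ube2g1 (0.907). Within the family Runx2 and Runx3 ran against each other (r = -0.966), and Runx1 correlated with Runx2 at 0.51 and with Runx3 at -0.55. These values rest on the MLL-AF9 cotransduction: over the other 8 libraries they were -0.547, -0.919 and 0.531.

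Genes that work with RUNX proteins were followed in 7 lists of 107 genes. Counts are calls by limma over all genes of a table, to be read against the 35.6% of genes called higher and 34.0% called lower in the MLL-AF9 cotransduction, 22.7% and 21.1% in the E2A-HLF cotransduction, and 4.20% and 2.16% in the stable cells. The median log2 fold change of all genes tested was near 0, at 0.00622, 0.0112 and 0.0148. Some listed genes were under 1 FPKM in both libraries of 1 group and passed the filter only through the other. For these the direction of a call was fixed. Among those named below they are Selp, Prkcq, Itgae, Src and Tnfrsf11b with MLL-AF9, and Cebpe and Wwtr1 with E2A-HLF.

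Transcription factors that share RUNX1 sites in blood progenitors came first. Of 12 such factors, 7 were higher and 4 lower in the MLL-AF9 cotransduction (median 0.41). Ets1, an ETS factor that binds DNA together with RUNX1, went from 22.0 to 1.06 FPKM (log2 fold change -3.48, adjusted p = 2.10e-06). Tal1 and Gata2, regulators of stem cells and of the erythroid and mast cell lineages, rose by 1.83 and 1.64. Fli1 (-0.96), Lmo2 (-1.33) and Myb (-0.45) fell and Erg (1.34) rose, so this set was split between directions. Of 11 tested with E2A-HLF, 5 were higher and 3 lower (median 0.03), with Cebpa at 0.58, Erg at -0.45 and Gata1 at 0.40. After quantile normalization the same list had 3 higher and 5 lower, 3 higher when PRDM16 replicate 1 or either PRDM16mut library was left out, and 1 lower when PRDM16 replicate 2 was. In the stable cells 2 of 10 were lower, Erg (-0.34) and Ets1 (-0.21).

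Corepressors and coactivators of RUNX proteins numbered 20 among the tested genes of the MLL-AF9 cotransduction, 6 higher and 10 lower (median -0.21). Cbfa2t3, also called ETO2, a member of the corepressor family that is fused to RUNX1 in leukaemia, measured 33.2 and 38.7 FPKM with PRDM16 against 8.16 and 8.28 FPKM with PRDM16mut (limma adjusted p = 2.85e-05). Tle1, a Groucho-type corepressor, rose by 0.81. Runx1t1, another member of the family of Cbfa2t3, was listed at 0 in all MLL-AF9 libraries and at 0.278 FPKM or less with E2A-HLF. With either PRDM16mut library left out 3 were higher, and with replicate 2 left out 6 were lower. Of 22 tested with E2A-HLF, 3 were higher and 2 lower (median 0.07; 0 to 5 higher with 1 library left out), with Wwtr1 at -0.37, Cbfa2t2 at -0.32 and Ncor1 at 0.31. In the stable cells 0 of 20 were called (median -0.06).

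All tested RUNX targets in myeloid cells were called in both cotransductions: of 14 with MLL-AF9, 5 were higher and 9 lower (median -0.41), and of 13 with E2A-HLF, 11 were higher and 2 lower (median 0.59). Of the 13 tested in both, 7 were called in opposite directions, 4 higher in both (Csf2rb, Cebpa, Spi1 and Cdkn1a) and 2 lower in both (Gfi1 and Myb). Whether the list as a whole differed between the experiments was not tested. The share of all genes called in opposite directions was not taken, so these counts do not set the list apart. Cebpe is among the 7, and its direction with E2A-HLF was fixed by the filter. Elane, neutrophil elastase, went from 2676 to 13.7 FPKM in the first (-7.51) and from 3.07 to 56.3 FPKM in the second (3.82). Cebpe, a regulator of granule genes, also fell in the first (-3.77). Gfi1 fell in both, by 5.12 and by 0.34 on the log2 scale. Cebpe (3.67) and Mpo, myeloperoxidase (3.62), rose in the second. Csf1r, the macrophage growth factor receptor and a RUNX1 target, measured 60.2 and 67.2 FPKM with PRDM16 and 11.7 and 12.2 FPKM with PRDM16mut in the MLL-AF9 cotransduction, opposite to Runx1. It stayed at 0.285 FPKM or less with E2A-HLF. Il3 was listed at 0 in every library. Of these 16 genes, 3 (Cebpe, Elane and Mpo) are also on the neutrophil precursor marker list, whose sums also moved in opposite directions in the 2 cotransductions. In the stable cells Cdkn1a was higher (0.35) and Mpo lower (-0.45) of 13 (median 0.01).

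RUNX1 targets in megakaryocytes were split in the MLL-AF9 cotransduction, with 8 tested, 4 higher and 4 lower (median -0.02), led by Selp, P-selectin (4.23), Prkcq, protein kinase C theta (1.93), and Rab27b, a granule transport protein (-1.13). Of 9 tested with E2A-HLF, 3 were higher and 5 lower (median -0.46), led by Itga2b, the platelet integrin CD41 (1.81), Selp (-1.18) and Myh9 (1.01). Selp was called in opposite directions, but its direction with MLL-AF9 was fixed by the filter. Of the 7 genes tested in both cotransductions 4 were called in opposite directions, Selp included, 1 higher in both and 1 lower in both. The share of all genes called in opposite directions was not taken. Of 3 tested in the stable cells 1 was called, Pf4, platelet factor 4, which was higher (0.45). Lymphocyte targets of RUNX1 and RUNX3 were mostly silent, and of 15 the filter left 4 with MLL-AF9, 3 with E2A-HLF and 1 in the stable cells. With MLL-AF9 2 were higher and 2 lower. Itgae, the integrin CD103 (2.16), and Gzmb, granzyme B (1.499), rose, and Il7r, the interleukin 7 receptor (-1.36), fell. With E2A-HLF 2 were higher and 1 lower. Satb1, a chromatin organiser, fell from 7.27 to 2.73 FPKM (-1.15), and Zbtb7b, a factor of CD4 T cells (0.44), and Gzmb (0.32) rose. In the stable cells the 1 tested gene was not called.

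RUNX2 targets in bone were nearly all silent, and only 2 of 15 passed the filter in each experiment. Ibsp, bone sialoprotein, was listed at 0 in all 12 libraries, and Sp7, the osteoblast factor osterix, did not exceed 0.0201 FPKM. With MLL-AF9 both tested genes were higher. Tnfrsf11b, osteoprotegerin, measured 4.84 and 4.51 FPKM with PRDM16 and was listed at 0 in both PRDM16mut libraries. It passed the filter only through the PRDM16 group, so its call could only be higher. Spp1, osteopontin, which macrophages also make, rose from 391 to 775 FPKM with PRDM16 in the MLL-AF9 cotransduction (log2 fold change 0.99), where Runx2 fell. Spp1 fell from 837 to 475 FPKM in the E2A-HLF cotransduction (-0.82), where Runx2 also fell. In the stable cells, where Runx2 was not called, Spp1 rose from 55.3 to 72.3 FPKM (0.38). The other bone target tested rose in each case, Tnfsf11, the osteoclast factor RANKL, with E2A-HLF (0.77) and Mmp13, a collagenase, in the stable cells (0.39). Of the kinases, phosphatase, isomerase and ubiquitin ligases that act on RUNX proteins, 16 were tested in the MLL-AF9 cotransduction, with 5 higher and 8 lower (median -0.20). Src, a tyrosine kinase, rose from 0.335 to 6.12 FPKM (2.41), and the cell cycle kinases Cdk6 (-1.297) and Cdk2 (-1.13) fell. Without either PRDM16mut library 3 were higher and 5 lower. Of 15 tested with E2A-HLF 2 were higher, among them the kinase Mapk3 (0.27), and in the stable cells 1, Mapk3 (0.19). Over the 7 lists 8 calls were made in the stable cells, and 0 to 2 were left when any 1 of the 4 libraries was left out.

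**Figure D4:**
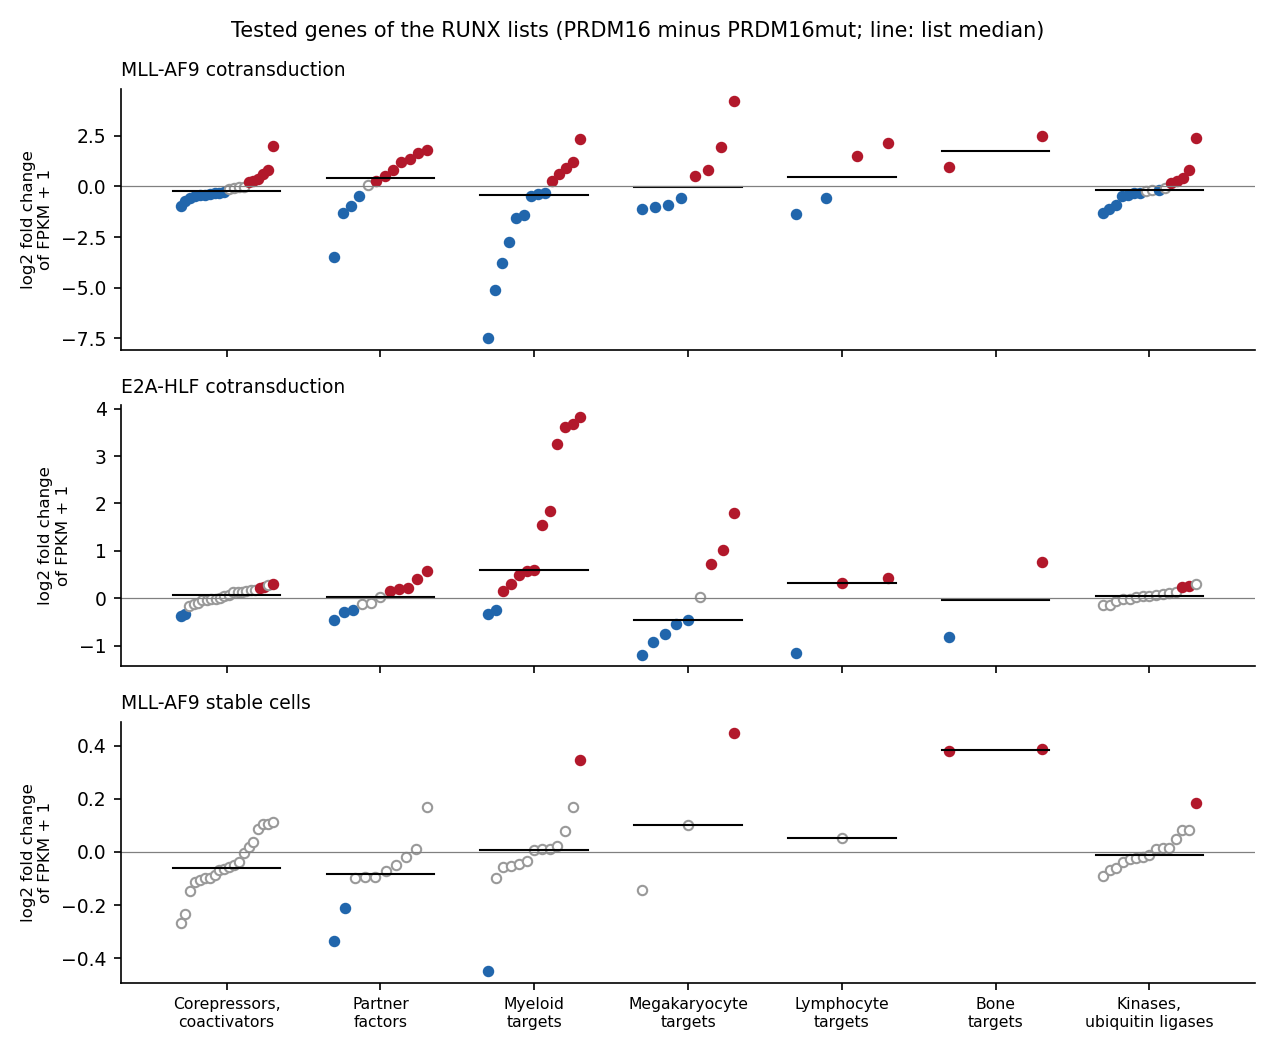
Log2 fold change of FPKM plus 1 (PRDM16 minus PRDM16mut) for the tested genes of the 7 lists in the 3 experiments, on separate axes, ordered by value within a list. Red points were called higher, blue lower, open grey points were not called, and black lines are list medians. The myeloid target median is -0.41 in the MLL-AF9 cotransduction, 0.59 in the E2A-HLF cotransduction and 0.01 in the stable cells.

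The share of genes with an ACCACA core in a RefSeq promoter window was taken by call, over only those genes that had a window. In the MLL-AF9 cotransduction it was 15.8% of genes called higher, 16.6% of those called lower and 13.6% of the rest. With E2A-HLF it was 17.4%, 15.8% and 14.2%. In the stable cells, with 304 genes higher and 163 lower that had a window, it was 19.1%, 11.7% and 15.2%. No test was made of these shares. Of the 4 genes, 2 share exonic bases with a gene on the opposite strand in the GENCODE vM21 annotation. Runx2os1 shares 519 of the 8837 exonic bases of Runx2, and Gm26626 shares 106 of the 12025 of Runx1. Counting by strand is not stated, so reads from those bases cannot be told apart. Supt3, which overlaps the Runx2 locus on the other strand, shares no exonic base with it and measured 10.9 and 11.1 FPKM with PRDM16 against 9.94 and 9.86 FPKM with PRDM16mut in the MLL-AF9 cotransduction.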

How the data were processed

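The authors deposited 3 tables of FPKM, 1 per experiment, with 4 libraries each. Per the submitters' processing notes, Bowtie2 2.0.0.7, TopHat2 2.0.3, Cuffdiff and the mm9 build were used. The sources used here do not give the annotation, the scaling between libraries or filters. Per the labels' protocols, libraries were TruSeq v2 with oligo(dT) priming. Columns were tied to samples by the sample titles.

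Each table was fitted alone in R 4.3.3 with limma 3.58.1 (trend on mean level, two-sided) on log2 of FPKM plus 1, for genes with at least 1 FPKM in at least 2 of 4 libraries. Differences between experiments were fitted over all 12 libraries. On simulated data with known changes of 1 on the log2 scale the procedure recovered 88%, 92% and 95% for the MLL-AF9 cotransduction (11071 genes), E2A-HLF (11010 genes) and stable cells (10580 genes). The simulation changed 200 genes per table, fewer than were called in any of them. It shuffled the spread among genes and took it from the replicates, so these shares may not hold for the real data. Alternatives were a pseudocount of 0.1, no filter, at least 5 FPKM, quantile normalization, no variance trend, a shared spread, the replicate block and leaving out each library. Members and lists were chosen with earlier results of these data known. Named were the 4 members, up to 3 called genes of largest change per list and comparison (a few others were named after their values were seen), and the 5 genes most like each member. In 2 tables the older symbols of Kat6a and Kat6b, and in all 3 that of Spi1, were matched through RefSeq synonyms. A few genes of the lists are not reported here by name.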

Additional observations from a re-analysis of the deposited data

Results flagged for a closer look

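The effect, meaning PRDM16 minus PRDM16mut and so from either form, differed between experiments for the 3 RUNX genes, by the contrast of contrasts in limma. For Runx1 the effect in the E2A-HLF cotransduction minus that in the MLL-AF9 cotransduction was 1.13 on the log2 scale, that in the stable cells minus that in the MLL-AF9 cotransduction was 0.46, and that in the stable cells minus that in the E2A-HLF cotransduction was -0.67. For Runx2 the first 2 of these differences were 1.80 and 1.97. For Runx3 they were -0.73 and -0.76. In these comparisons 71.4%, 64.0% and 37.1% of all 9488 genes passed the same test, so a difference between experiments was common. The first 2 involve the MLL-AF9 cotransduction, where only the PRDM16 libraries list Rn45s at 0 and where Prdm16 was called higher with PRDM16. The part of either in these differences was not tested.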

How the results depend on the processing

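Of 132 alternative values of the 12 log2 fold changes of the 4 genes, 126 kept their direction where called and their side of the threshold, 4 lost a call, 2 gained one and 0 reversed. The losses were all for Runx2 in the E2A-HLF cotransduction, which was -0.20 (limma adjusted p = 0.110) with no filter on low values and ran from -0.25 to -0.16 when 1 library was left out. The gains were for Cbfb in the same experiment, -0.20 after quantile normalization and -0.17 without replicate 1 of the PRDM16mut group (range with 1 library left out -0.17 to -0.075). The list counts were less stable. Of 462 alternative counts of called list members, 374 stayed at or near the main count and 88 moved, changes to or from 0 included. The differences in effect for the 4 genes kept their side in 176 of 180 alternatives. Cbfb gained a call after quantile normalization for E2A-HLF against MLL-AF9 cotransduction (-0.22) and for stable cells against E2A-HLF (0.19). The first also passed without replicate 2 of the MLL-AF9 PRDM16 group and without replicate 1 of the E2A-HLF PRDM16mut group, in a range from -0.21 to -0.10. The number of genes called in the stable cells moved from 673 to 104 with no filter, 278 with no variance trend and 299 with a shared spread, and to between 65 and 139 with 1 library left out. The share of calls that were higher in the E2A-HLF cotransduction went from 51.8% to 44.7% with quantile normalization, and in the stable cells from 66% to 51.6%. With no filter on low values it was 21.2% in the stable cells, which turns the balance, and with 1 library left out 51.4% to 81.3%. The cause was not tested. Where a library is left out, its partner is assumed to vary like the other group.

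Same-numbered libraries share only a number, and the correlation of their deviations was 0.067, 0.289 and 0.319 in the 3 experiments. With the replicate block no call of the 4 genes changed, Runx2 in the E2A-HLF cotransduction staying at -0.20, and 7812, 4354 and 664 genes were called.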
